A study of Rattus norvegicus with 20 samples.

Results

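The immediate-early genes of the rat cortical collecting duct are described here in 34 genes named by symbol: 9 members or partners of the AP-1 family, 11 zinc finger and nuclear receptor factors with Myc, 4 genes of RNA decay and growth arrest, 7 of signalling feedback and stress, and 3 genes of matrix and cell shape. Of these, 33 had a row among the 32545 genes counted, and all 33 were among the 14472 genes that passed a filter on low counts. Ier2 is not analysed here. Fosl1, Egr3 and Myc had 0 reads in 13, 10 and 4 of the 20 libraries and passed the filter through few libraries, so that counts over the members below are descriptions.

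The ducts came from male Sprague-Dawley rats aged 5 weeks that all carried subcutaneous minipumps delivering 5 ng per hour of DDAVP, a synthetic vasopressin that acts on the V2 receptor. Control rats received 25 mL of water per day in gelled food and water-loaded rats 50 mL per day, a model of vasopressin escape, in which the kidney loses part of its response to the hormone. Kidneys were digested with collagenase and the ducts were dissected out. This was done after 1 day (3 control and 3 water-loaded rats), 2 days (4 and 4) or 4 days (3 and 3), with 1 library per rat. RNA was amplified by a method made for single cells. No group was free of DDAVP, of digestion or of dissection. The general treatment text names 4 days for every rat, while the titles and the design text give the 3 days used here. The clock time of a dissection, or the time from death to lysis, was not given in the labels, so its effect on the genes was not tested, and only the day of dissection can be compared.

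Immediate-early genes are transcribed within minutes of a stimulus by factors already present in the cell, such as the serum response factor SRF, CREB and NF-kappaB, without new protein synthesis. Their messengers are short-lived, and several of their products (Zfp36, Dusp1, Nfkbia, Socs3) act to end the response. In collecting duct principal cells the V2 receptor acts through cyclic AMP and protein kinase A, a route that also reaches CREB. Enzymatic digestion of tissue is a known stimulus of the same genes. All groups were digested, so its part in the levels below was not tested.

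Each library held 33.5 to 74.9 M reads assigned to genes (median 55.7 M). At this depth 1 read stood for 0.0138 to 0.0309 normalised counts-per-million (CPM, scaled by TMM factors, which adjust for differences in library composition). Markers of principal cells (11 of 11 measured, 15300 to 71500 CPM summed) and of intercalated cells (9 of 9, 8230 to 13600 CPM) were present in every library. Day 1 control 1 stood apart, with the lowest number of genes detected (12665, against up to 15266) and the lowest TMM factor (0.645). Its summed level of 9 fibroblast, pericyte and smooth muscle markers was 3630 CPM, against 6.68 to 126 CPM in the other libraries. Myh11 (1570 CPM), Col3a1 (1290) and Tagln (481) made up most of that sum. Pdgfra was at 0 in all day 1 control rats. Pdgfrb was at 0.332 CPM in day 1 control 1, against up to 25.6 CPM elsewhere. The 10 heat shock genes of day 1 control 1 summed to 6330 CPM, against 907 to 2610 CPM elsewhere. Day 1 water-loaded 2 had a TMM factor of 0.686 and a sum of 8620 CPM over 15 proximal tubule markers, against 59.7 to 3050 CPM elsewhere. The median water load difference on day 1 and the number of genes called between days are therefore given with and without these libraries.

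Per length of transcript, the genes spanned the whole range of the transcriptome. On the scale of the authors' fragments per kilobase per-million (FPKM), the median level over 20 libraries was over 100 in 8 genes, 10 to 100 in 11, 1 to 10 in 9 and under 1 in 5, and 25 of 33 lay above the median of all genes tested. Ier3, a stress-induced survival factor, led with a median FPKM of 832 (range over libraries 192 to 2370), followed by Fos, the founding AP-1 subunit, with 698 (324 to 2430). Next came the antiproliferative genes Btg1 (276) and Btg2 (211), the AP-1 subunit Junb (162), the zinc finger factor Egr1 (144), the RNA-decay factor Zfp36 (132) and the stress factor Atf3 (111). Jun (78.2), the MAP kinase phosphatase Dusp1 (75.9), the NF-kappaB inhibitor Nfkbia (61.5), the orphan receptor Nr4a1 (56) and the growth-arrest gene Gadd45b (49.6) formed the middle of the order. The lower part, in order of median FPKM, held Klf6 (27.2), Ier5 (24.3), Klf10 (21.6), Fosb (14.6), Jund (13.1), Rhob (12.5), Cyr61 (9.06), Klf4 (8.76), Ctgf (8.09), Klf2 (7.53), Zfp36l1 (7.49), Socs3 (6.97), Nr4a2 (4.27), Fosl2 (2.52) and Egr2 (2.23). Maff (0.93), Nr4a3 (0.116), Myc (0.0527), Egr3 (0.0049) and Fosl1 (0) had a median under 1. The library ranges of all neighbours in this order overlapped. Such overlap does not compare 2 genes within a library: Fos, for one, was above Btg1 in every library. The order of neighbours was not tested. Of the genes with a median under 1, Nr4a3, Myc, Egr3 and Fosl1 held 3 reads or fewer in 6, 10, 11 and 14 libraries. There, 3 reads stood for 0.0414 to 0.0926 CPM.

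Promoter sequence was read for the genes because they share known response elements, the cyclic AMP response element (CRE) that binds CREB and the CArG box that binds SRF. RefSeq promoters of the GRCr8 assembly were matched for 24 of the 33 genes, 2 of them through newer symbols of Cyr61 and Ctgf. GRCr8 is not the build the reads were aligned to (rn6), and the coordinates belong to GRCr8 alone. In the 250 bases before each start, the full CRE, TGACGTCA, which reads the same on both strands, lay in 4 of 24 (16.7%; Jund, Btg2, Dusp1 and Maff), against 1.59% of 33469 promoters of the same length. The half-site, TGACG on one strand or CGTCA on the other, lay in 12 of 24 (50%) against 18.2%, and each full CRE counts as a pair of overlapping half-sites. A CArG box on either strand lay in 4 of 24 (16.7%; Egr1, Egr2, Zfp36 and Klf6) against 1.5%. These are matches of letters and not shown sites. Shown 5′ to 3′ on the strand of each gene, with the matched letters in capitals, are the promoters of Zfp36 (chr1:92799109-92799358, minus strand, a CArG box starting 32 bases before the start), Dusp1 (chr10:17184603-17184852, plus strand, a CRE at 124 bases), Btg2 (chr13:48087691-48087940, minus strand, a CRE at 201 bases) and Nr4a1 (chr7:134259888-134260137, plus strand, 4 half-sites). Only 0.173% of promoters held 4 or more half-sites. The start used for Nr4a1 is not the outermost start of the gene.
Zfp36: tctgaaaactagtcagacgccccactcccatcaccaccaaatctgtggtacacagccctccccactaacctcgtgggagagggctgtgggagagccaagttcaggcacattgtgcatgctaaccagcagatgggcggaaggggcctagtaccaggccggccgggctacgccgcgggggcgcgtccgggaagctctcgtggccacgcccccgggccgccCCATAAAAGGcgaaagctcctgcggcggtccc
Dusp1: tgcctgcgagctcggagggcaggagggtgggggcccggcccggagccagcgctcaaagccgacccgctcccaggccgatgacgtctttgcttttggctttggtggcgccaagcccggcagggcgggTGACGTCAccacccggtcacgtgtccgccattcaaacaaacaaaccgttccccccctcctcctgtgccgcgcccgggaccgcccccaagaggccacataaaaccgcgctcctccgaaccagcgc
Btg2: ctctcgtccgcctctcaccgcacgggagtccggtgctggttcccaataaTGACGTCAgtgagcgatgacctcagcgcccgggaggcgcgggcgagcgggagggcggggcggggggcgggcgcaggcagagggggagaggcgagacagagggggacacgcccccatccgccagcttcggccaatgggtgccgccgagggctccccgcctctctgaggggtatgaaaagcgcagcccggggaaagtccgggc
Nr4a1: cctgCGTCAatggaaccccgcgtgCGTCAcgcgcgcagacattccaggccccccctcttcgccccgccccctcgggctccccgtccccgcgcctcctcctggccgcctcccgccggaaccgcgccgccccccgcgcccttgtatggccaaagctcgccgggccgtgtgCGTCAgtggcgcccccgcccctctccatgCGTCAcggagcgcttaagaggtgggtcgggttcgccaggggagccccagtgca

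Across the 20 libraries the genes were highest on day 1, and above all in day 1 control rats 1 and 2. The highest level of 30 of 33 genes lay in 1 of the 6 day 1 libraries, against 47.2% of all genes tested. Day 1 control 1 held the highest level of 20 genes (18.9% of all genes), day 1 control 2 of 8 (4.17%) and day 1 water-loaded 2 of 2 (14.1%; Ier5 and Klf10). The other 3, Btg1, Cyr61 and Nfkbia, were highest in day 2 control 3. Together the 33 genes took 2.36% of the assigned reads in day 1 control 1 and 1.73% in day 1 control 2, but 0.351% in day 1 control 3. In day 1 water-loaded rats they took 0.373, 1.02 and 1%, and in the 14 libraries of days 2 and 4 they took 0.273% to 0.848%. In bulk ducts a change in the number of cells of a type and a change in RNA per cell cannot be told apart.

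**Figure D1:**
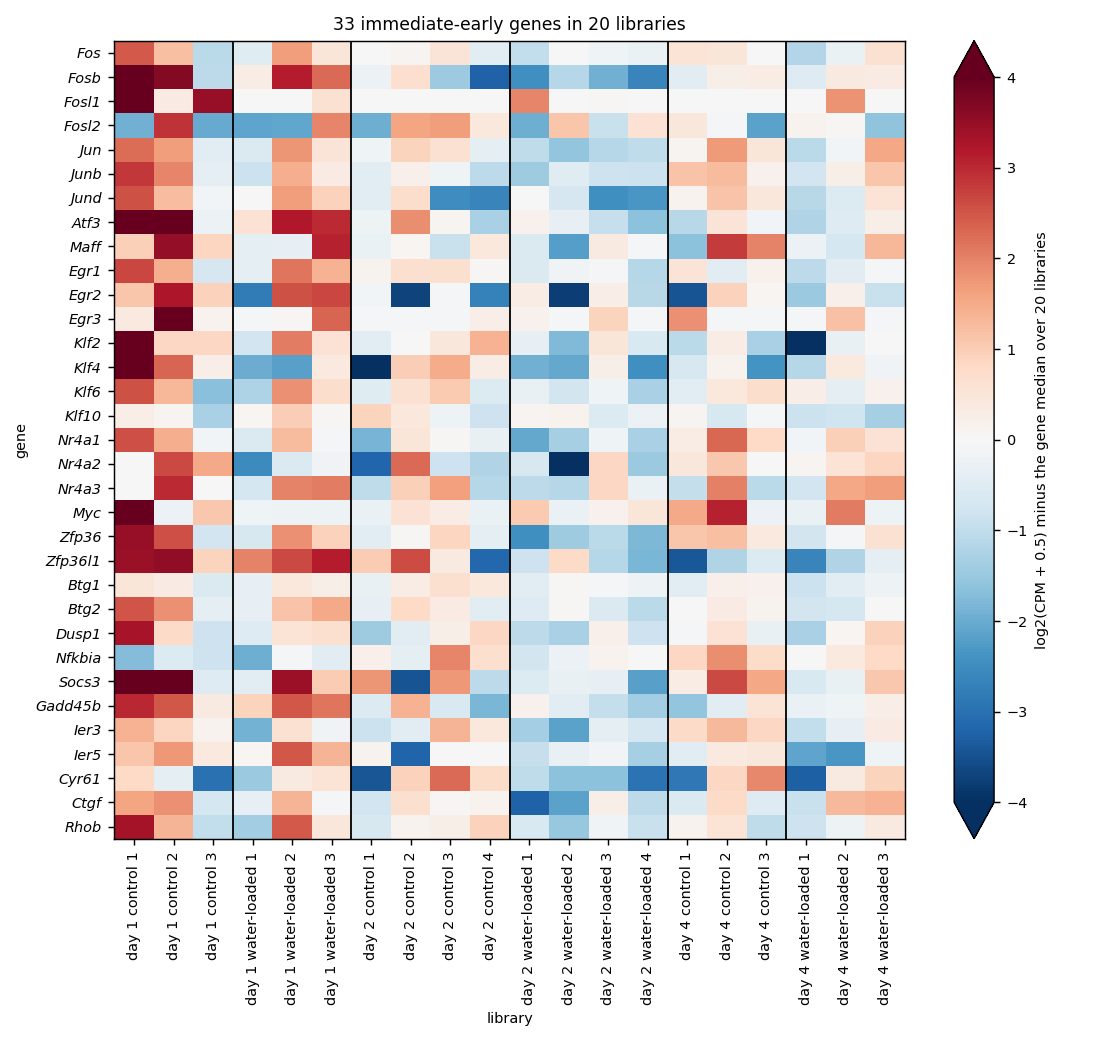
Level of each of 33 immediate-early genes (rows, by role) in each of 20 libraries (columns, by group; vertical lines part the groups), as log2(CPM + 0.5) minus the median of that gene over the 20 libraries. Red is above and blue below the gene's own median, and colours end at 4 and -4; day 1 control 1 and 2 are red for most genes while day 1 control 3 is pale or blue for most, Fosl1 being red there.

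**Figure D2:**
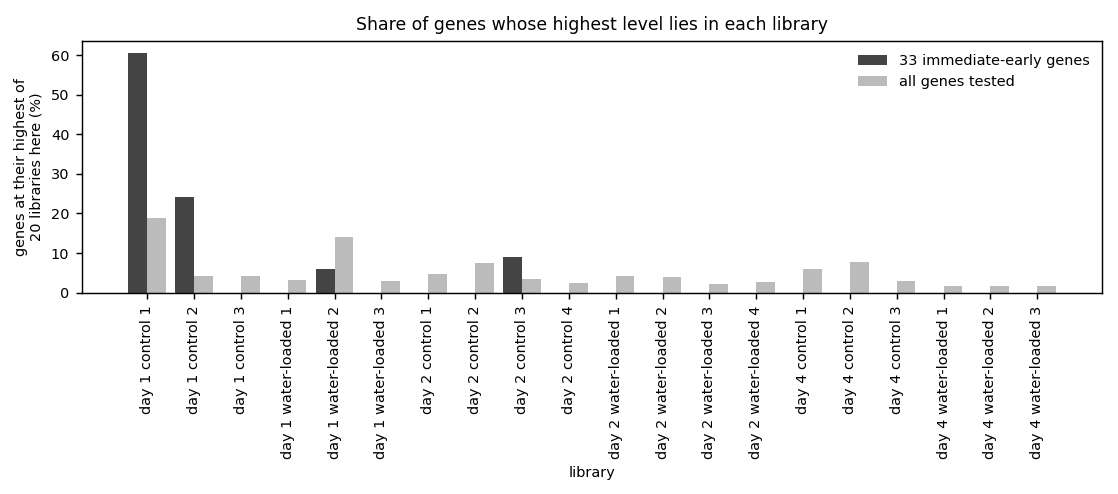
Percentage of genes whose highest CPM of 20 lies in each library (x axis), for the 33 immediate-early genes (dark bars) and for all 14472 genes tested (light bars). Day 1 control 1 holds 20 and day 1 control 2 holds 8 of the 33.

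Rats of one group were far apart, and the same rats were high or low for most of the genes. Day 1 control 3 was the lowest of its group for 27 of 33 genes (24.8% of all genes) and day 1 water-loaded 1 for 30 (33.6%). Day 4 water-loaded 1 was the lowest of its group for 28 (34.1%) and day 4 water-loaded 3 the highest for 23 (34%). Day 4 control 2 was the highest of its group for 21 (31.9%). On day 2 no rat was highest for more than 16 genes (day 2 water-loaded 3). The spread between rats of one group, as the pooled standard deviation of log2 CPM, had a median of 1.23 over the 33 genes and of 1.40 over all genes tested, where low genes vary more. Against genes of like level (in 20 bins of level), 28 of 33 lay above the median spread, and 31 of 33 without day 1 control 1. Fosb (SD 1.68) and Atf3 (1.49) stood at the 99.9th percentile of genes of like level, Zfp36 (1.08) at 99.3, Dusp1 (1.09) at 98.6, Jun (0.96) at 98.5 and Fos (0.91) at 98.1. Btg1 (SD 0.38, percentile 27.8) and Klf10 (0.58, 16.6) varied least for their level. The median SD of the genes was 1.69 in day 1 control rats (1.27 over all genes), 1.25 in day 1 water-loaded rats (1.18), 0.98 and 0.78 on day 2 (0.95 and 0.72) and 0.77 and 0.88 on day 4 (0.74 and 0.51), control rats first in each pair.

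The first comparison asks whether the genes differ between days of dissection when the water supply is the same. In control rats the fitted level was lower on day 2 than on day 1 by 28.7-fold for Fosb and 13.2-fold for Atf3, and lower on day 4 by 19.8-fold and 20.9-fold. A gene is called here when its p-value from the quasi-likelihood test of edgeR, adjusted by Benjamini-Hochberg over all 14472 genes, is under 0.05. Among control rats 355 genes were called between the 3 days (2.45%), and 3 of the 33 were among them, Fosb, Atf3 and Klf2. With the fitted level highest on day 1, 251 genes were called (1.73%) and the same 3 genes. At an unadjusted p under 0.05 by edgeR stood 16 of 33, against 22.5% of all genes. Among water-loaded rats edgeR called 38 genes (0.263%; 34, or 0.235%, with day 1 highest) and 0 of the 33, with 11 of 33 at an unadjusted p under 0.05 (12.1% of all genes). The fitted difference of day 2 minus day 1 was below 0 for 29 of 33 genes in control rats (median -1.87 on the log2 scale; 45.4% of all genes, median 0.13) and for 29 of 33 in water-loaded rats (median -1.58; 46.6%, median 0.09). Day 4 minus day 1 was below 0 for 30 of 33 in control rats (median -1.57; 48.7%, median 0) and for 25 of 33 in water-loaded rats (median -0.96; 49%, median 0.01). Day 4 minus day 2 was above 0 for 25 of 33 in water-loaded rats (median 0.67), with 52.1% of all genes below 0 (median -0.04). The genes were split in control rats (18 higher and 14 lower, median 0.08), with 54.6% of all genes below 0 (median -0.11). No p is given for these counts, and which days differ was not tested gene by gene.

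**Figure D3:**
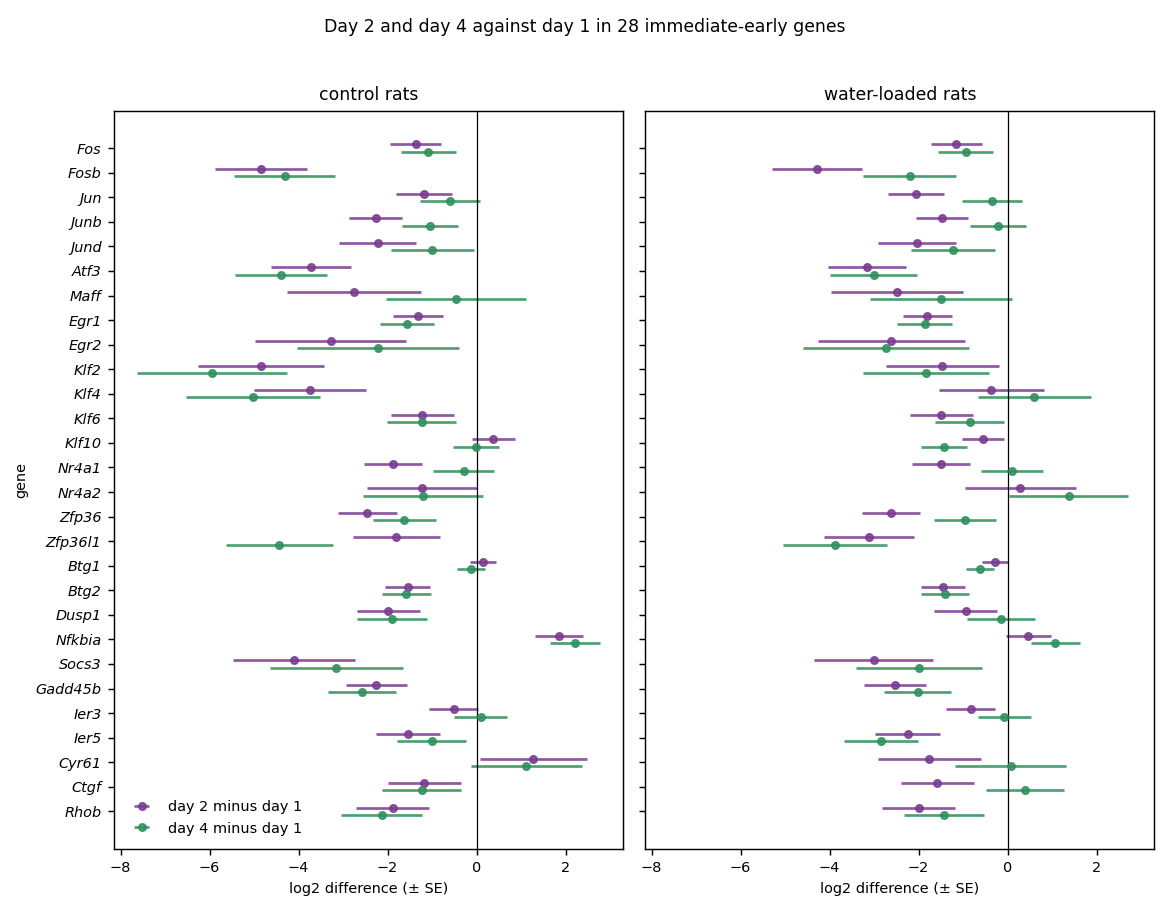
Fitted log2 difference of day 2 (purple) and day 4 (green) minus day 1, with bars of 1 standard error, for 28 immediate-early genes in control rats (left) and water-loaded rats (right; 3, 4 and 3 rats on days 1, 2 and 4 in each arm). Most points lie left of 0, Klf2 on day 4 furthest in control rats (-5.94), while Nfkbia lies right of 0 in both arms; the 5 genes with most libraries at 3 reads or fewer (Fosl1, Egr3, Myc, Nr4a3 and Fosl2) are not drawn.

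The number of genes called among control rats moved with single libraries and with the tool. Without day 1 control 1 edgeR called none of the 33 (0.284% of all genes; adjusted p 0.165 for Fosb, 0.125 for Atf3 and 0.795 for Klf2), and without day 4 control 1 none either (0.475%; 0.0501, 0.058 and 0.0908). Without day 1 control 3 it called 10 (3.62%), with a filter of 10 CPM 10 of the 28 left (5.83%), and with the number of genes detected as a covariate none (2.02%). limma-voom called 1, Fosl1 (3.56%). The DESeq2 likelihood-ratio test called 12 of 33 in control rats (11% of all genes), Fosb and Atf3 among them, and 7 of 33 in water-loaded rats (3.59%). It gave no adjusted p for Klf2 in control rats, so Klf2 was not assessed by it. The heat shock and muscle-type markers given above moved with day 1 control 1, and their part in the difference between days was not tested.

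Among the 9 AP-1 genes and partners, edgeR called 2 between days in control rats, Fosb and Atf3, and did not call Fos. Fos stood at 5990, 2490 and 512 CPM in day 1 control rats 1 to 3 and at 772, 3510 and 1520 CPM in day 1 water-loaded rats. On day 2 its CPM was 1080, 1180, 1570 and 799 in control and 545, 1070, 968 and 897 in water-loaded rats, and on day 4 1600, 1530 and 1100 and 484, 900 and 1650. Day 1 control 3 and day 1 water-loaded 1 thus lay under or within the levels of the later days of their arm, and the day 1 and later groups overlapped in both arms. The log2 difference of Fos between day 2 and day 1 was -1.37 (SE 0.57) in control and -1.15 (SE 0.57) in water-loaded rats, and the test across days did not call it (edgeR adjusted p = 0.241 and 0.541).

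Fosb, an AP-1 subunit whose messenger is usually scarce at rest, was at 2560, 667 and 24.7 CPM in day 1 control rats and at 64, 466 and 253 CPM in day 1 water-loaded rats. Its later levels were 44.3, 83, 18.6 and 5.04 (day 2 control), 9.11, 23.3, 13.3 and 7.9 (day 2 water-loaded), 39, 61.2 and 63.7 (day 4 control) and 36.1, 67.5 and 66.2 CPM (day 4 water-loaded). Day 1 control 1 and 2 exceeded every later rat by far, while day 1 control 3 fell within the later range. In control rats Fosb fell by 4.84 on the log2 scale from day 1 to day 2 (SE 1.03, 28.7-fold) and by 4.31 to day 4 (SE 1.14; edgeR adjusted p = 0.0173 across days). In water-loaded rats the differences were -4.28 (SE 1.01) and -2.20 (SE 1.04), with an edgeR adjusted p of 0.115.

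Atf3, a stress-induced partner of the AP-1 proteins, was at 8430, 5040 and 196 CPM in day 1 control and 341, 2110 and 1840 CPM in day 1 water-loaded rats. On day 2 it was at 199, 836, 248 and 93.6 CPM in control and 262, 184, 121 and 74.1 CPM in water-loaded rats, and on day 4 at 107, 330 and 214 and 99, 161 and 274 CPM. In water-loaded rats every day 1 level was above every later one, and in control rats day 1 control 3 again lay among the later levels. Atf3 fell in control rats by 3.72 to day 2 (SE 0.90, 13.2-fold) and by 4.39 to day 4 (SE 1.04, 20.9-fold; edgeR adjusted p = 0.0212), and its differences in water-loaded rats were -3.16 (SE 0.88) and -3.01 (SE 0.98; adjusted p = 0.125).

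Within a library, ratios between genes do not depend on scaling, and they showed that the AP-1 genes did not keep fixed proportions. The FPKM of Fosb was 19.7%, 12.3% and 2.22% of that of Fos in day 1 control 1 to 3 and 3.82%, 6.11% and 7.67% in day 1 water-loaded rats, but 0.291% to 3.25% on day 2 and 1.12% to 3.46% on day 4. For Atf3 the percentages were 96.2%, 138% and 26.2% in day 1 control rats and 30.2%, 41.1% and 82.8% in day 1 water-loaded rats, against 5.64% to 48.6% on day 2 and 4.58% to 14.7% on day 4. Relative to Fos, both genes had their highest ratios on day 1, while day 1 control 3, and for Atf3 also day 1 water-loaded 1 and 2, lay within the range of the later days. These ratios are given without a test.

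The Jun genes were high in the same rats. Jun stood at 1050, 711 and 162 CPM in day 1 control and 149, 753 and 321 CPM in day 1 water-loaded rats. On day 2 it was at 198, 412, 340 and 171 and 109, 74.9, 102 and 109 CPM, and on day 4 at 242, 721 and 310 and 106, 206 and 648 CPM. Junb was at 2000, 1090 and 214 and 155, 768 and 351 CPM on day 1, 205, 322, 250 and 135 and 103, 198, 158 and 154 CPM on day 2, and 622, 668 and 313 and 163, 330 and 598 CPM on day 4, control rats first in each pair. Jund, which is usually expressed at rest, was at 127, 50.5 and 19.6 and 20.7, 67.8 and 40 CPM, 15.4, 34.6, 3.35 and 2.93 and 21.5, 13.1, 3.47 and 3.79 CPM, and 23.1, 47.2 and 29.1 and 9.55, 14.3 and 31.3 CPM in the same order. Levels of Jun and Junb on day 4 reached those of day 1 in single rats (day 4 control 2, day 4 water-loaded 3), and edgeR called no Jun gene between days (adjusted p 0.422, 0.081 and 0.24 for Jun, Junb and Jund in control rats). On day 2 the Jund levels of rats 3 and 4 of both arms, 2.93 to 3.79 CPM, lay apart from those of rats 1 and 2, 13.1 to 34.6 CPM. The day 2 libraries numbered 1 and 2 and those numbered 3 and 4 varied together across all genes, and the values within each pair of numbers are given with the water load below.

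The remaining AP-1 members were scarce. Fosl1 had 15.9, 0.128 and 5.14 CPM in day 1 control rats, 1.43 CPM in day 2 water-loaded 1 and 1.25 CPM in day 4 water-loaded 2, and at most 0.262 CPM in every other library. Fosl2 ranged from 0 to 15.9 CPM with its highest value in day 1 control 2, and Maff, a small MAF factor, from 0 to 25.9 CPM in the same rat. Fosl1 was at 0 in all control rats of days 2 and 4, where a fitted difference depends on the prior count and is no bound.

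Of the zinc finger and nuclear receptor factors, Egr1 and Klf2 show how far single rats set the level. Egr1, a growth factor response gene, stood at 2590, 1120 and 258 CPM in day 1 control and 309, 1790 and 1080 CPM in day 1 water-loaded rats. Its later levels were 445, 631, 632 and 425 and 272, 372, 391 and 185 CPM on day 2, and 579, 298 and 464 and 197, 295 and 383 CPM on day 4. The lowest day 1 rat lay below all later rats in the control arm and within the later range in the water-loaded arm, and the log2 differences from day 1 were -1.31 (SE 0.56) and -1.57 (SE 0.61) in control and -1.80 (SE 0.56) and -1.86 (SE 0.62) in water-loaded rats (edgeR adjusted p = 0.171 and 0.179). Klf2, a flow-responsive factor best known in endothelium, was at 922, 14 and 14 CPM in day 1 control rats, 4.28, 32.7 and 11.5 CPM in day 1 water-loaded rats. It was at 5.51, 7.62, 10.5 and 20.5 (control) and 5.91, 1.89, 10.7 and 4.78 CPM (water-loaded) on day 2, and at 3.32, 9.41 and 2.8 and 0, 6.03 and 7.55 CPM on day 4. Its call between days in control rats (-4.84, SE 1.41, and -5.94, SE 1.68; edgeR adjusted p = 0.0402) was lost without day 1 control 1, which was 28.2 times the next library, and was among the 3 lost without day 4 control 1. Day 1 control 1 also held the highest sum of 8 endothelial markers, 879 CPM, against 10.5 to 775 CPM elsewhere. Plvap (383 CPM), Tie1 (250), Cdh5 (167) and Flt1 (62.2) were at their highest there. Emcn (1.88) and Ehd3 (0.0276) were at their lowest, Tek was at 0.111 CPM (up to 36.7 elsewhere) and Kdr at 14.1 CPM (up to 31.7). The part of endothelial cells was not tested.

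Klf4, an epithelial differentiation factor, was at 1100, 103 and 24 CPM in day 1 control and 4.72, 4.02 and 26.3 CPM in day 1 water-loaded rats. It was at 0.312, 39.8, 56.7 and 24.6 (control) and 4.91, 4.41, 23.5 and 3.27 CPM (water-loaded) on day 2, and at 12.6, 22 and 3.36 and 8.87, 26.2 and 18.1 CPM on day 4. Day 1 control 1 was 10.7 times the next library, and single rats of day 2 ran from 0.312 to 56.7 CPM (edgeR adjusted p = 0.0624 across days in control rats). Klf6 was at 260, 113 and 13.7 and 18.6, 160 and 71.7 CPM on day 1, 31.4, 67.3, 92.6 and 30.5 and 36.2, 26.3, 38.9 and 17.7 CPM on day 2, and 32.8, 59.8 and 71.9 and 53.8, 34.3 and 50.5 CPM on day 4. Klf10, a TGF-beta response gene, ran only from 18.7 to 93.9 CPM. Its day 1 control rats, at 57.9, 51.5 and 18.9 CPM, were ordered as for most of the genes but did not exceed the other groups. Its highest library was day 1 water-loaded 2.

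Nr4a1, an orphan nuclear receptor, stood at 471, 218 and 72.7 CPM in day 1 control and 52.9, 189 and 75.8 CPM in day 1 water-loaded rats. On day 2 it was at 21.4, 111, 81.4 and 64.3 and 18.8, 30.8, 69.2 and 31.7 CPM, and on day 4 at 96.3, 388 and 137 and 72.5, 151 and 118 CPM. The levels of day 2 and of day 4 both overlapped those of day 1 in both arms. Day 4 minus day 1 was -0.29 (SE 0.69) in control and 0.10 (SE 0.69) in water-loaded rats, day 2 minus day 1 was -1.87 (SE 0.65) and -1.49 (SE 0.65), and the test across days did not call it (edgeR adjusted p = 0.17 in control rats). Its relatives were lower: Nr4a2 ranged from 0.0867 to 67.6 CPM and Nr4a3 from 0 to 8.24 CPM, both highest in day 1 control 2, as were Egr2 (0 to 63.8 CPM) and Egr3 (0 to 14.5 CPM). Myc was at 17.2, 0.0183 and 0.772 CPM in day 1 control rats and at most 4.57 CPM in every other library, with 3 reads or fewer in 10 of 20.

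Of the 4 RNA-decay and growth-arrest genes, edgeR called none between days in either arm, while the DESeq2 likelihood-ratio test called Zfp36, Zfp36l1 and Btg2 in control rats and Zfp36 and Zfp36l1 in water-loaded rats. Zfp36, which destabilises messengers with AU-rich elements, was high in the same day 1 rats as the AP-1 genes. Zfp36 stood at 2520, 1350 and 134 CPM in day 1 control and 144, 802 and 424 CPM in day 1 water-loaded rats. Later it was at 169, 233, 406 and 171 and 40.7, 84.9, 107 and 65 CPM on day 2, and 487, 519 and 298 and 136, 219 and 347 CPM on day 4. Its log2 differences from day 1 were -2.45 (SE 0.66) and -1.62 (SE 0.71) in control and -2.62 (SE 0.66) and -0.96 (SE 0.70) in water-loaded rats (edgeR adjusted p = 0.0797 and 0.161). Zfp36l1, its relative, showed every day 1 water-loaded rat (70, 110 and 156 CPM) above every later one (at most 29.8 CPM). The day 1 control rats, at 194, 210 and 33 CPM of Zfp36l1, overlapped those of day 2, at 1.54 to 108 CPM. They lay above those of day 4, at 1.2 to 11.8 CPM.

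Btg2, an antiproliferative p53 and immediate-early target, was at 3050, 1910 and 408 CPM in day 1 control and 431, 1180 and 1550 CPM in day 1 water-loaded rats. It was at 433, 944, 670 and 398 (control) and 373, 558, 357 and 255 CPM (water-loaded) on day 2, and at 533, 672 and 590 and 325, 329 and 543 CPM on day 4. Outside day 1 it stayed between 255 and 944 CPM, and the test across days did not call it (edgeR adjusted p = 0.0975 in control and 0.259 in water-loaded rats). Btg1, its relative, ran only from 228 to 642 CPM over all 20 libraries, with day 1 control 1 at 575 CPM.

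Of the 6 measured feedback and stress genes, edgeR called none between days, while the DESeq2 likelihood-ratio test called Dusp1, Nfkbia, Socs3 and Gadd45b in control rats and Ier5 and Gadd45b in water-loaded rats. In control rats Nfkbia was lower on day 1 than later, while most others were higher on day 1. For Nfkbia each day 1 control rat lay below each later control rat. Among water-loaded rats Nfkbia was not always low where the other genes were high. Its lowest level of all, 23.3 CPM, was in day 1 water-loaded 1, where most of the genes were the lowest of their group. Dusp1, which dephosphorylates MAP kinases, stood at 1480, 257 and 85.1 CPM in day 1 control and 104, 221 and 236 CPM in day 1 water-loaded rats. Later levels were 56, 110, 178 and 269 and 71.9, 60.4, 174 and 84.7 CPM on day 2, and 142, 223 and 122 and 60.5, 159 and 285 CPM on day 4. Outside day 1 control 1, no rat exceeded 285 CPM. Nfkbia, the NF-kappaB inhibitor, was at 27.2, 61.5 and 51.5 CPM in day 1 control rats, below every later control rat, and at 23.3, 85.8 and 66.2 CPM in day 1 water-loaded rats. Its day 2 levels were 104, 71, 351 and 146 and 54.5, 76.8, 99.9 and 92.3 CPM and its day 4 levels 163, 331 and 153 and 89.5, 119 and 158 CPM. The difference was 1.85 (SE 0.54) to day 2 and 2.21 (SE 0.57) to day 4 in control rats, with an edgeR adjusted p of 0.0736.

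Socs3, the inhibitor of cytokine receptor signalling, was at 392, 150 and 3.7 CPM in day 1 control and 4.06, 64.5 and 11.8 CPM in day 1 water-loaded rats. It was at 20.2, 0.057, 19.7 and 2.42 (control) and 3.68, 4.44, 4.3 and 0.842 CPM (water-loaded) on day 2, and at 6.91, 37.2 and 17.3 and 3.49, 4.44 and 12.3 CPM on day 4. Day 1 control 3, at 3.7 CPM, and day 1 control 1, at 392 CPM, differed 106-fold within 1 group. Ier3 was at 1870, 1290 and 787 CPM in day 1 control and 189, 1070 and 634 CPM in day 1 water-loaded rats. It was at 393, 518, 1830 and 947 (control) and 278, 159, 535 and 443 CPM (water-loaded) on day 2, and at 1200, 1730 and 1250 and 353, 558 and 886 CPM on day 4. Unlike Fosb and Atf3, Ier3 did not follow the days (day 4 minus day 1 0.09, SE 0.59, in control rats; edgeR adjusted p = 0.727 across days). Ier5, a relative of Ier2, stood at 67.5, 104 and 40.6 and 32.5, 175 and 79.2 CPM on day 1, 33.7, 2.86, 31.3 and 30.1 and 15.8, 24.8, 28.3 and 11.9 CPM on day 2, and 22.6, 40.6 and 41.8 and 6.73, 5.69 and 27.3 CPM on day 4. Gadd45b ranged from 15.9 to 475 CPM, and its day 1 water-loaded rats (108, 325 and 254 CPM) all lay above the later ones (at most 69.2 CPM).

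Among the matrix and cell shape genes, Rhob, a stress-inducible small GTPase, was at 266, 67.4 and 13 CPM in day 1 control and 9.52, 144 and 35.7 CPM in day 1 water-loaded rats. It was at 16.4, 28.9, 30.9 and 49.5 (control) and 17, 8.71, 23.8 and 13.9 CPM (water-loaded) on day 2, and at 28.5, 38 and 12.5 and 14.4, 22.6 and 33.3 CPM on day 4. The secreted matricellular genes Cyr61 (1.59 to 108 CPM) and Ctgf (1.57 to 68.5 CPM), targets of SRF and YAP, had their highest levels in day 2 control 3 and day 1 control 2. Counted over rats, every day 1 rat was above every later rat of its arm for 1 of 33 genes in control rats (Fosl1; 3.59% of all genes) and for 4 of 33 in water-loaded rats (Ier5, Zfp36l1, Atf3 and Gadd45b; 3.53%). Every day 1 rat was below for 1 gene in control rats (Nfkbia; 3.52%) and 0 in water-loaded rats (4.62%).

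**Figure D4:**
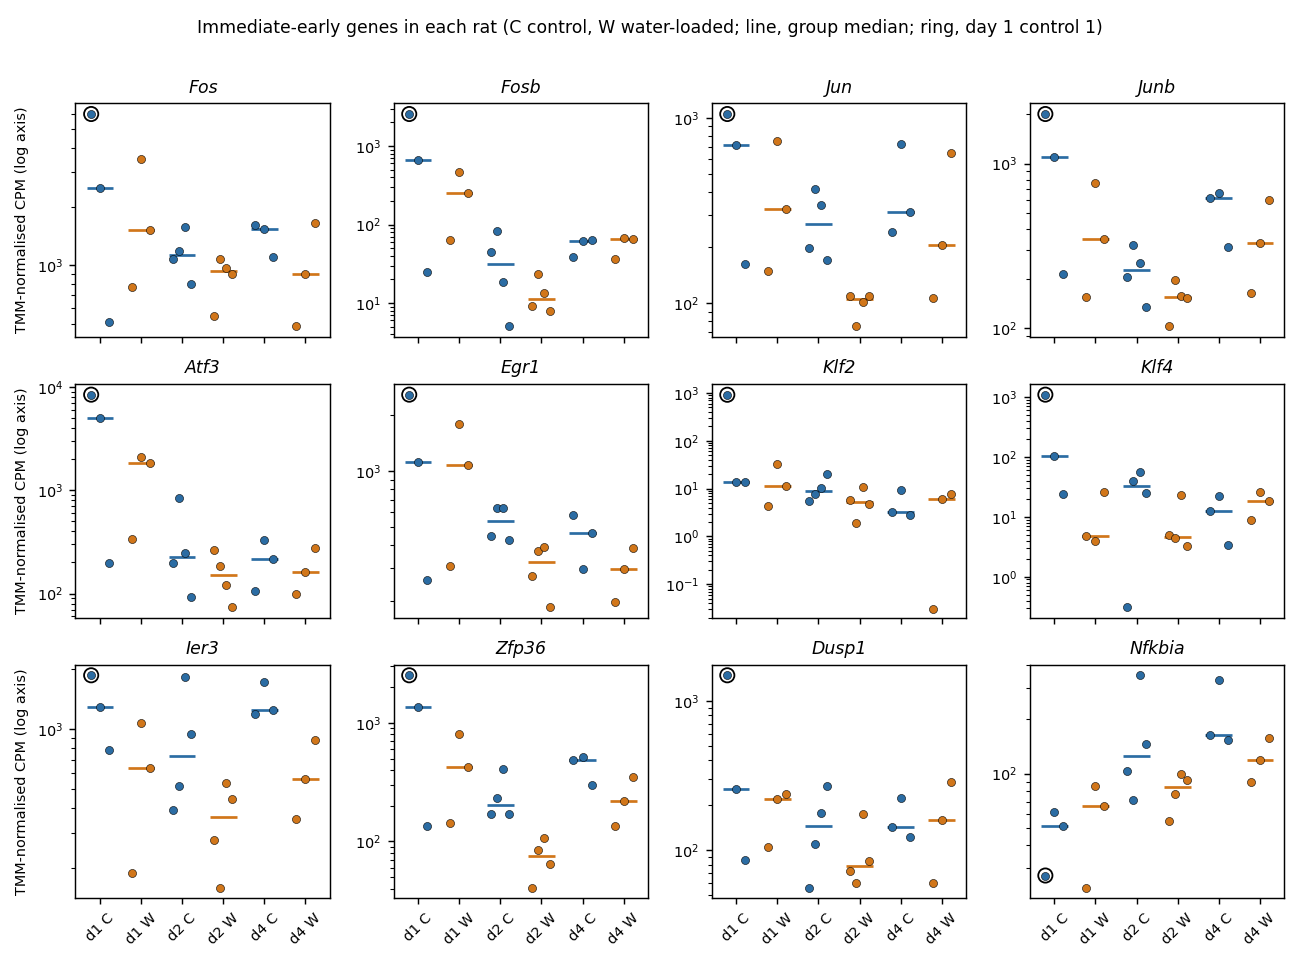
TMM-normalised CPM (log axis) of 12 immediate-early genes in every rat, by group (d1, d2 and d4, days 1, 2 and 4; C, control; W, water-loaded), with a line at the group median and a ring around day 1 control 1. The 3 control rats of day 1 span more than the other groups for most genes, and a rat with 0 reads (Klf2 in day 4 water-loaded 1) is drawn at 0.03 CPM.

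The second comparison, the one the study was designed for, sets water-loaded against control rats that both received DDAVP. Most of the genes had a lower fitted level in the water-loaded rats on each day, but edgeR called none of them. The fitted difference of water load minus control was below 0 for 29 of 33 genes on day 1 (48.9% of all genes), 29 of 33 on day 2 (53.2%), 25 of 33 on day 4 (49.8%) and 32 of 33 over the average of the days (49%). The median difference on the log2 scale was -0.76 on day 1, -0.90 on day 2, -0.49 on day 4 and -0.67 on average, against 0, -0.05, 0 and 0.01 over all genes. edgeR called 0 of 33 genes on day 1, day 2 and day 4 (0% of all genes in each) and 0 of 33 over the average (0.159%, 23 genes). At an unadjusted p under 0.05 by edgeR stood 6 genes on day 1, all lower (15.6% of all genes in either direction, 6.98% lower), 6 on day 2, 5 of them lower (5.23% and 2.47%), 0 on day 4 (7.22% and 2.22%) and 9 over the average, all lower (13.5% and 6.05%). DESeq2 called 2 of 33 genes on day 1 (Klf4 and Myc; 7.78% of all genes), 0 on day 2 (0.532%), 0 on day 4 (2.2%) and 3 over the average (Ier3, Zfp36 and Klf4; 4.89%). Myc had 622, 1 and 47 reads in day 1 control rats and 2, 1 and 1 in day 1 water-loaded rats. Its day 1 difference by edgeR was -7.6 (SE 3.12), and -3.69 without day 1 control 1.

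**Figure D5:**
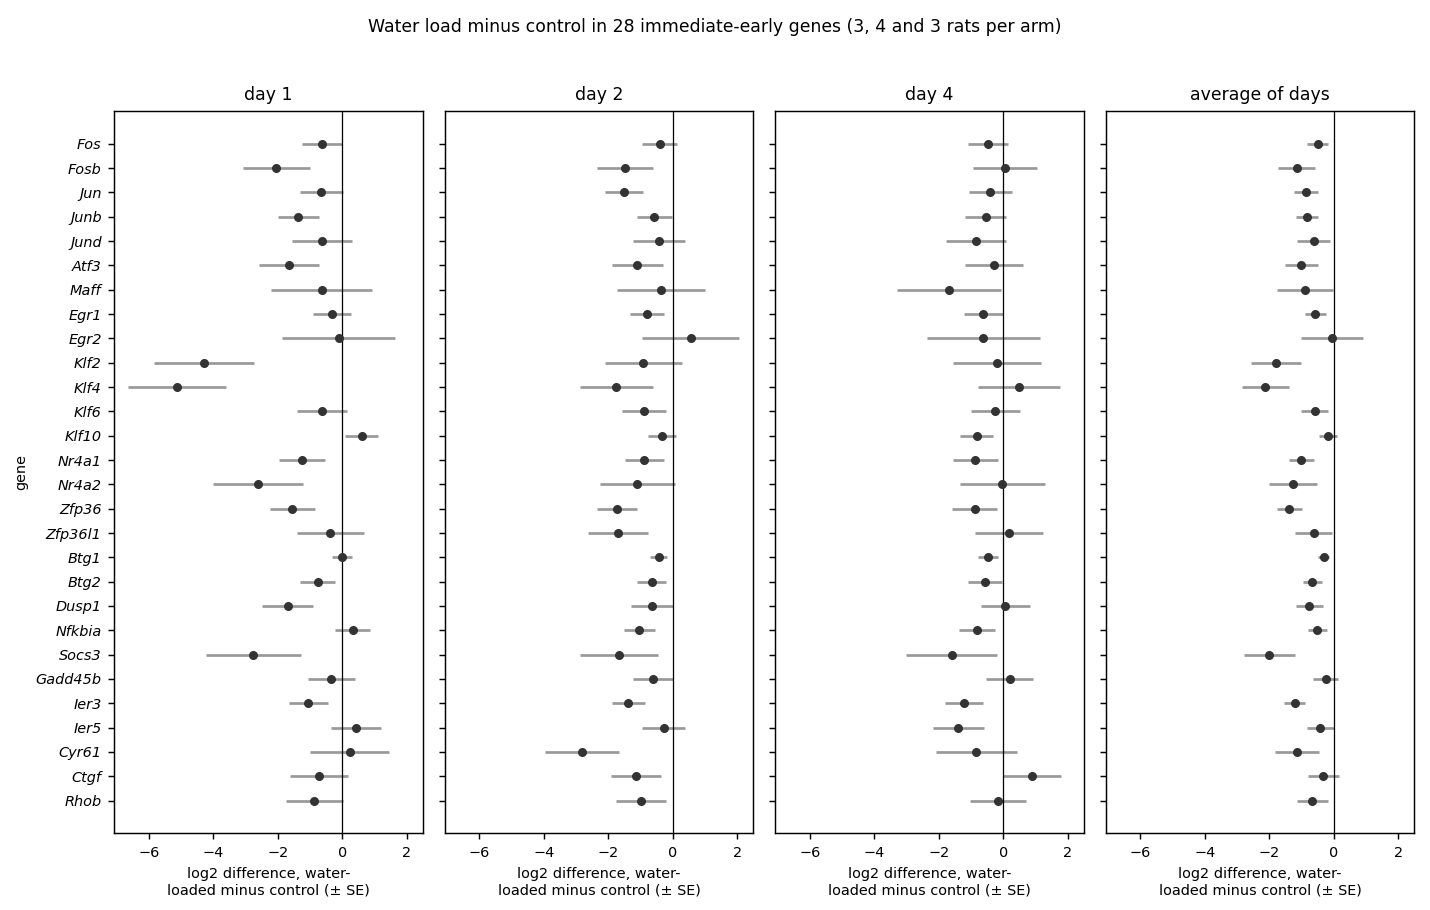
Fitted log2 difference of water-loaded minus control rats, with bars of 1 standard error, for 28 immediate-early genes on day 1, day 2, day 4 and over the average of the days (3, 4 and 3 rats per arm). Most points lie left of 0 in each panel, 29, 29, 25 and 32 of all 33 genes being below 0, and the 5 genes with most libraries at 3 reads or fewer (Fosl1, Egr3, Myc, Nr4a3 and Fosl2) are not drawn.

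The counts on days 1 and 4 depended on single libraries more than those on day 2. Without day 1 control 1 the difference on day 1 was below 0 for 20 of 33 genes (42.8% of all genes) with a median of -0.41. It had a median of -0.38 without day 1 water-loaded 1 and of -1.45 without day 1 water-loaded 2. Without both day 1 control 1 and day 1 water-loaded 2 it was below 0 for 30 of 33 genes (47.1% of all genes), with a median of -0.85. On day 4 the median was -0.04 without day 4 control 2 (17 of 33 lower, 46.9% of all genes). It was -0.27 without day 4 water-loaded 1 and -0.74 without day 4 water-loaded 3. With the number of genes detected as a covariate the day 4 median was -0.06, as over all genes (18 of 33 lower, 52.5% of all genes). On day 2 leaving out any one rat gave medians from -1.14 to -0.63. Within the day 2 rats numbered 1 and 2 the median difference was -0.56 with 26 of 33 lower (all genes 0.04), and within those numbered 3 and 4 it was -0.64 with 22 lower (0.01). The control rats of day 1 enter both this comparison and the one between days, so that the day 1 values are not independent of the difference between days given above. Principal cell markers summed to 29400 to 42700, 27300 to 42900 and 36400 to 71500 CPM in control rats on days 1, 2 and 4. In water-loaded rats they summed to 16700 to 30400, 15300 to 27500 and 19300 to 29100 CPM. Aqp2 made up most of each sum, at 18100 to 55400 CPM in control and 9240 to 18500 CPM in water-loaded rats. Over the average of the days the 11 markers had a median difference of -0.28. The list holds the vasopressin-regulated genes themselves, and its part was not tested.

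Among the AP-1 genes, 8 of 9 were lower over the average (median -0.83) and edgeR called 0. Junb differed by -0.83 (SE 0.35; edgeR adjusted p = 0.294) and Jun by -0.86 (SE 0.37; 0.32). Fosb differed by -1.16 (SE 0.56; edgeR adjusted p = 0.371), Atf3 by -1.02 (SE 0.51; 0.399) and Fos by -0.51 (SE 0.34; 0.578). On day 2 all 4 water-loaded rats had less Jun (74.9 to 109 CPM) than all 4 control rats (171 to 412 CPM), a difference of -1.51 (SE 0.59; edgeR adjusted p = 0.857). The exception in sign was Fosl1, which was at 0 in most libraries.

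Of the 11 zinc finger and nuclear receptor factors with Myc, all 11 were lower over the average (median -0.59) and edgeR called 0. Klf4 differed by -2.13 (SE 0.73; edgeR adjusted p = 0.201), Nr4a1 by -1.01 (SE 0.39; 0.252) and Klf2 by -1.80 (SE 0.78; 0.316), and Egr1 by -0.58 (SE 0.33; 0.477). On day 1 Klf4 differed by -5.13 (SE 1.51) and Klf2 by -4.29 (SE 1.56), but without day 1 control 1 the differences were -2.44 and 0.21. Egr1 on day 2 did not overlap between the arms (185 to 391 CPM with water load, 425 to 632 CPM without), and neither did Nr4a2 on day 1 (1.38 to 9.52 CPM against 10.6 to 67.6 CPM) or Klf10 on day 4 (18.7 to 26.9 CPM against 30.5 to 50.9 CPM).

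All 4 RNA-decay and growth-arrest genes were lower over the average (median -0.65), led by Zfp36 at -1.39 (SE 0.39; edgeR adjusted p = 0.136). Its day 2 levels did not overlap between the arms, 40.7 to 107 CPM with water load and 169 to 406 CPM without (difference -1.72, SE 0.62). Leaving out single rats moved its average from -1.61 to -1.10, and without day 1 control 3 it was called (edgeR adjusted p = 0.0449; 0.244% of all genes). Btg2 differed by -0.67 (SE 0.30; edgeR adjusted p = 0.325), Zfp36l1 by -0.63 (SE 0.58; 0.74) and Btg1 by -0.31 (SE 0.17; 0.468).

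All 6 measured feedback and stress genes were lower over the average (median -0.64), led by Ier3 at -1.22 (SE 0.33; edgeR adjusted p = 0.126), the lowest adjusted p of the 33. Ier3 had differences of -1.06 (SE 0.60), -1.38 (SE 0.52) and -1.22 (SE 0.60) on days 1, 2 and 4, and its average ran from -1.42 to -1.03 when single rats were left out. On day 4 its levels did not overlap between the arms, 353 to 886 CPM with water load and 1200 to 1730 CPM without. Socs3 differed by -2.01 (SE 0.79; edgeR adjusted p = 0.259), Dusp1 by -0.77 (SE 0.42; 0.461), Nfkbia by -0.52 (SE 0.30; 0.494), Ier5 by -0.42 (SE 0.43; 0.786) and Gadd45b by -0.26 (SE 0.40; 0.898). Dusp1 on day 1 went from -1.70 to 0.13 without day 1 control 1. Cyr61 (-1.15, SE 0.69), Ctgf (-0.33, SE 0.49) and Rhob (-0.67, SE 0.49) were lower too and not called.

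Counted over rats, the groups did not overlap and water-loaded rats were lower for 1 of 33 genes on day 1 (5.17% of all genes), 3 on day 2 (1.88%), 2 on day 4 (6.73%) and 0 over all days together (0.0276%). They were higher without overlap for 0 genes on day 1 (5.71%), day 2 (2.35%), day 4 (7.93%) and all days together (0%). Whether the water load effect differed between days was tested as an interaction. edgeR called 0 of all genes (0%) and so 0 of the 33, and at an unadjusted p under 0.05 stood 2 of 33, Fosl1 and Klf4 (8.56% of all genes). A gene that was not called is not shown to be equal between groups.

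Other early response genes outside the 33 and their regulators were read from lists that had been chosen with these data known. Of 38 further early response genes measured, 36 were tested, 26 were lower and 10 higher with water load over the average (median -0.56), and 0 were called by edgeR. Phlda1 (-1.54, SE 0.35; edgeR adjusted p = 0.0737) and Spry2, an inhibitor of receptor tyrosine kinase signalling (-1.34, SE 0.41; 0.171), had the lowest p of them. Between days in control rats 2 of the 36 were called by edgeR: Cebpd, an acute-phase factor, fell (-3.63 and -2.38 on days 2 and 4; adjusted p = 0.0307) and Id2, an inhibitor of helix-loop-helix factors, rose (3.97 and 5.78; 0.0307). Cebpd also fell in water-loaded rats (-5.78 and -4.27; edgeR adjusted p = 0.00323), from 81.6, 647 and 130 CPM on day 1 to 6.59, 1.46, 10.2 and 2.55 CPM on day 2 and 6.07, 16.7 and 21.6 CPM on day 4, without overlap between day 1 and later rats. In control rats it went from 299, 260 and 105 CPM to 24.2, 18.3, 12.7 and 16.1 CPM and 15.3, 90.7 and 21.6 CPM, again without overlap.

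Of 25 tested kinases, cofactors and transcription factors that act upstream, 15 were lower and 10 higher with water load over the average (median -0.08). edgeR called none, and Mkl1, an SRF cofactor, came first (-1.0, SE 0.47; edgeR adjusted p = 0.364), then Mapk8, the kinase JNK1 (2.51, SE 1.20; 0.372). Of 9 heat shock genes tested, 6 were lower and 3 higher (median -0.25) and edgeR called 0, Hspa5 (-0.57, SE 0.22; edgeR adjusted p = 0.253) and Hspb1 (-0.92, SE 0.39; 0.308) leading. Between days in control rats Hspb1, the small heat shock protein, fell (-3.49 and -2.37; edgeR adjusted p = 0.0213), from 1790, 205 and 210 CPM on day 1 to 53.9, 39, 102 and 66.6 CPM on day 2 and 171, 206 and 49.8 CPM on day 4, day 1 control 1 being far above the others.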

How the data were processed

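RNA of microdissected cortical collecting ducts from 20 rats in 6 groups was amplified and sequenced. Reads were processed with Trimmomatic 0.32, STAR 2.4.0.1, SAMtools and HTSeq on rn6, per the submitters' processing notes; the sources used here name no settings, annotation or use of strand, so reads of a gene and an antisense partner cannot be told apart. The authors deposited whole-number counts per gene, which were used for all tests, and FPKM, which was used for levels per length and for alternatives. No label states how the rats of a group were raised or processed, so p-values measure the spread between these libraries.

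Counts were fitted with edgeR 4.0.16 (R 4.3.3), all 20 libraries together with 1 mean per group, TMM scaling, filterByExpr and the robust quasi-likelihood test, with p-values adjusted by Benjamini-Hochberg over 14472 genes and a threshold of 0.05. Contrasts were water load minus control on each day and on average, the difference of that effect between days, and the days within each arm. Printed CPM are counts-per-million (CPM) scaled by TMM. Total counts were 33.5 to 74.9 M per library, and no 2 libraries were identical. The scripts were tested on simulated counts. Alternatives used limma 3.58.1, DESeq2 1.42.0, other filters and scalings, a replicate block, and each library left out. The DESeq2 likelihood-ratio test and a fit that sets apart rats 3 and 4 of day 2 were added after seeing the data.

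Same-numbered control and water-loaded libraries deviated together on day 2 (correlations of 0.148, 0.147, 0.154 and 0.236) but not on day 1 (-0.054, -0.059 and 0.06) or day 4 (-0.004, -0.034 and -0.091), so by the rule used (every correlation over 0.1) the numbers pair samples on day 2 only. Differently numbered rats also deviated together there, 1 with 2 (0.11 and 0.123) and 3 with 4 (0.188 and 0.204), while the other day 2 combinations were negative (-0.2 to -0.115), so that day 2 holds 2 sets of rats rather than 4 pairs.

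The members and gene lists were chosen with earlier results of these data known. Values in every library are given for a fixed set of members, the 3 with the smallest p in each water load contrast and those called; of other lists, the called genes and the 2 with the smallest p on average are named. Of 185 list entries, 6 had no row under their symbol.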

Additional observations from a re-analysis of the deposited data

Results flagged for a closer look

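In 42 sets of 4 day 2 rats examined, 3 held a rat far from the others of its group (by Dixon's test of the gap to the nearest rat over the range of the group, whose 95% limit chance passes in about 1 of 20 groups). Fosl1 stood at 1.43 CPM in day 2 water-loaded 1, against 0 to 0.0138 CPM in the other rats of the group. Ier5 was at 2.86 CPM in day 2 control 2, against 30.1 to 33.7 CPM in the others. Klf4 was at 23.5 CPM in day 2 water-loaded 3, against 3.27 to 4.91 CPM in the others.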

How the results depend on the processing

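Of 2836 values of single genes under an alternative, 2772 kept their direction and their side of the threshold, 32 passed it newly, 25 no longer passed it, and 7 changed sign or, for Fosl1 on day 4, went to 0. The cause was not tested for any of these. With single libraries left out, the genes called by edgeR numbered 0 to 9 on day 1, 6 to 37 over the average of days (0 to 1 of the 33, Zfp36 without day 1 control 3), 0 to 3 for the difference between days, 43 to 563 between days in control rats (0 to 10 of the 33) and 5 to 79 in water-loaded rats (0 to 1 of the 33, Fosb without day 1 control 3). The day 1 difference ran from -2.21 to 0.13 for Dusp1 and from -5.33 to 0.21 for Klf2, both turning without day 1 control 1, and that of Fosl1 on day 4 from 0 to 8.06. Fitted values of Fosl1 depend on the prior count, since whole groups were at 0. The call of Klf2 between days was lost under 15 of 26 alternatives, those of Fosb and Atf3 under 5 of 27 each.

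With the replicate block the average of days gave 5 genes in place of 23, and in the water load contrasts, where it was run, it changed no other call. It pairs rats by number on every day, while same-numbered rats deviated together on day 2 alone, and there no more than rats 1 with 2 and 3 with 4.

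With a filter of 10 CPM, 535 genes (10 of the 33) were called between days in control rats and 100 in water-loaded rats. With the number of genes detected as a covariate the counts were 4 over the average, 0 of the 33 between days in control rats and 0 genes in water-loaded rats, and the average of Jund turned to 0.53. Without both day 1 libraries that stood apart, 185 genes (0 of the 33) were called between days in control rats and 11 in water-loaded rats. By limma-voom the counts were 2 on day 1, 19 on day 2, 59 over the average, 1 for the difference between days, 1 of the 33 between days in control rats and 95 genes in water-loaded rats, with Fosl1 at -0.44 over the average. By limma on log2(FPKM + 1) they were 3, 3 and 5 on days 1, 2 and 4, with Fosl1 at -0.35, and on log2(FPKM + 0.1) 1, 1 and 3, and 13 over the average, with Fosl1 at -0.50. The DESeq2 Wald test called 1126 genes on day 1 (2 of the 33), 77 on day 2, 319 on day 4 and 708 over the average (3 of the 33). It gives no joint test, for which the DESeq2 likelihood-ratio test called 190 genes for the difference between days, 1586 between days in control rats (12 of the 33) and 520 in water-loaded rats (7 of the 33). By plain CPM 16 genes, in place of 20, were highest in day 1 control 1, and 1 gene, in place of 2, in day 1 water-loaded 2. Depth limits Fosl1, Egr3, Myc, Nr4a3 and Fosl2, whose libraries often held 3 reads or fewer.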
